A study of Drosophila melanogaster with 42 samples.

Results

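The duf CD2+ GFP+ population was represented by 1 pooled library, sequenced from DNA of 20015 sorted Drosophila melanogaster embryo cells. It was read beside the 5 input libraries of 39668 cells each that the series sets against it, so these 6 of the 42 libraries of the series were chosen, by their titles and cell numbers. Males of a transgenic pool, whose members carry different candidate regulatory regions next to a GFP reporter, were mated to females that express rat CD2, a cell surface marker, under a cell-type driver, here named duf. Egg collections of 2 to 2.5 h (25 °C) were followed by 9 to 10 h of ageing (18 °C). Dissociated cells were sorted after staining for CD2, and the inserted regions were amplified by nested PCR from crude genomic DNA and sequenced. The CD2+ GFP+ cells had both the driver marker and the reporter. The 5 inputs, called small inputs here, were not selected on GFP. Their population label is CD2-, which was followed here although the sign is missing from their titles, so CD2 state, GFP selection and cell number all differ between the library and its inputs. The most similar populations were 6 duf CD2- GFP+ libraries of 36206 to 55331 cells and their 6 CD2- inputs of 200000 cells. The labels give neither the number of embryos nor whether the small inputs came from separate sorts, so p-values measure only how far these libraries differ among themselves, part of which may be technical.

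The gene dumbfounded (duf, also called kirre) encodes an adhesion protein of the immunoglobulin superfamily that marks muscle founder cells. Each founder cell seeds a body wall muscle, attracts fusion-competent myoblasts through such adhesion proteins and carries the identity of its muscle, set by transcription factors such as slouch and org-1. An enhancer is a stretch of DNA that raises transcription of a gene in particular cells. In the assay, a region that drives the reporter in some of the sorted cells should be read more often, relative to the other regions, after GFP selection than without it. Only DNA was counted, so no RNA marker could be used to check that the CD2+ cells were founder cells.

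The region set held 491 regions of 900 to 1101 bp, named in the files as ChIPCRM (288), DHS_FC (49), CBP (38), DHS_FCM (9) or after a gene (107). Of these, 123 overlap another region, so their reads are not fully separate, and 38 had no read in any duf library. The library held 21926414 reads and the small inputs 15601849 to 20594981. CPM, reads per 1e6 reads of a library, is used for levels, on which a single cell of 20015 would contribute a share of 50.0 CPM and a floor of 3 reads is 0.137 CPM. At least 100 reads were found for 322 regions in the library and for 313 to 337 in the small inputs. The small inputs varied widely among themselves. Over the 271 regions with a mean of at least 1000 CPM in them, the median coefficient of variation was 82.1%, and the highest input was by the median 20.6 times the lowest. A cell-sampling error alone, for a region at 1000 CPM among 39668 cells, would be 15.9%. The library was sequenced in lane 1 and the small inputs in lanes 2, 5, 6, 7 and 8. Lane and group cannot be told apart within this comparison, and the lane 1 libraries of the CD2- groups are given where they bear on it.

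Reads were concentrated in fewer regions in the CD2+ GFP+ library than in its inputs, and in more than in the CD2- GFP+ libraries. The 10 most abundant regions took 35.5% of its reads, against 14.6% to 15.6% in the small inputs and 53.7% to 61.8% in the CD2- GFP+ libraries. Without its most abundant region the value was 32.5%. The 200000-cell inputs lay at 14.0% to 16.8%. The number of regions that held 50 percent of the reads was 24 in the library, 53 to 57 in the small inputs and 7 to 9 in the CD2- GFP+ libraries. None of these ranges overlapped the library's value. A total of 16 regions reached 10000 CPM in the library and together took 43.2% of its reads. These 16 comprised 11 ChIPCRM, 3 CBP and 2 gene-named regions, and 15 of them lay above every small input.

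**Figure D1:**
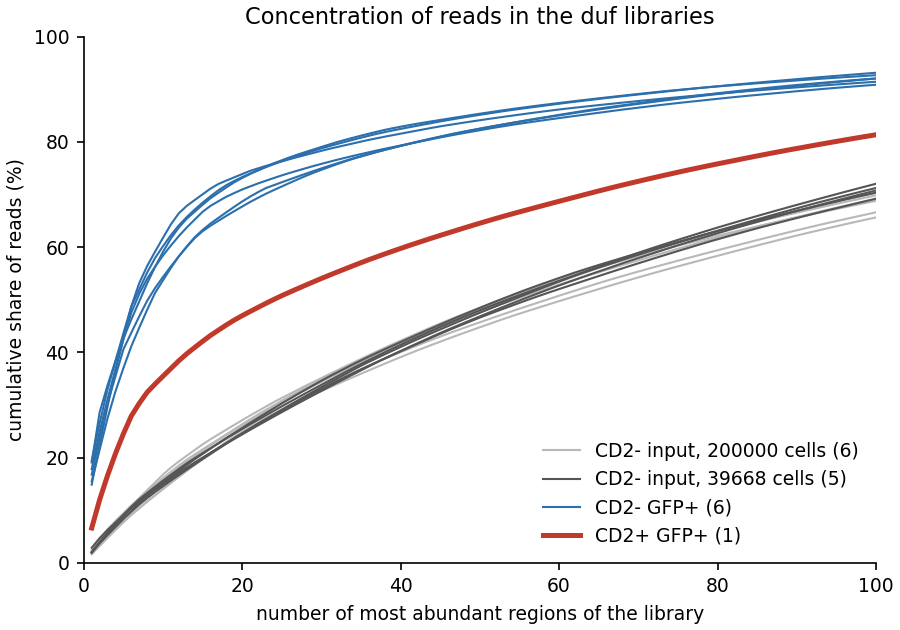
Cumulative share of reads (%) against the number of most abundant regions counted, with 1 line per duf library. The CD2+ GFP+ line lies between the 6 CD2- GFP+ lines and the 11 input lines, and its 10 most abundant regions took 35.5% of the reads.

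Against the small inputs, 53 of the 439 regions with a read in these 6 libraries lay above every input (12.1%) and 105 lay below every input (23.9%). An exact permutation test of 1 library against 5 cannot give a two-sided p below 0.333, so these are ranks and carry no test. If all 6 libraries were alike, each would lie above the other 5 in about 1 in 6 regions. On total reads, the 12.1% above was less than that share, so the 53 are not an excess by number, and the 23.9% below was more. On library sizes scaled by TMM, edgeR's correction for a few very abundant features, the counts were 77 above and 76 below, so which direction was more frequent depended on the scaling. Restricted to the 412 regions that reached the share of 1 cell in 20015 in at least 1 of the 6 libraries, 50 lay above (12.1%) and 103 below (25.0%). Against all 11 CD2- inputs of the duf driver, 36 of 447 lay above every input (8.05%) and 77 below (17.2%). The 53 regions took 53.0% of the reads of the library and 7.00% to 9.06% of those of a small input. The 105 took 8.21% and 32.7% to 37.8%. These shares describe regions chosen by the same values and carry no test.

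edgeR's quasi-likelihood test, in which the 1 GFP+ library was taken to be as variable as its inputs, called 1 region higher of 425 tested (0.235%) and 0 lower (0.0%). Before adjustment, 30 regions had a p under 0.05. By DESeq2, 9 were higher (2.12%) and 68 lower (16.0%), so the number of calls depended on the tool. The estimated biological coefficient of variation was 168%. The median region had a log2 change of -0.72 on the TMM scale and -1.26 on total reads, and log2 changes given here are on the TMM scale. With the spread taken from all 4 duf groups 11 regions were called higher, and with the 11 CD2- inputs together as the control 10 rose and 3 fell. The 11 were ChIPCRM2889, CBP4242, ChIPCRM5432, ChIPCRM2000, ChIPCRM2613, ChIPCRM5792, ChIPCRM5819, ChIPCRM5440, hth_3, CBP1911 and CG7759_33. All regions called higher under these settings lay above every small input. By contrast, part of the regions called lower by DESeq2 did not lie below every small input. ChIPCRM4510, with a log2 change of -27.8 by DESeq2, was among them.

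The region called, on the assumption that the single library varies like its inputs, was ChIPCRM2889 (dm3, 3R:17870003-17870903). It had 37647 CPM in the library and 3444, 2608, 903, 3206 and 3357 CPM in small inputs 1 to 5. The library was 10.9 times the highest input, and the inputs other than input 3 were close to each other. The log2 change was 4.33 ± 0.63 (SE, adjusted p = 0.036 by edgeR). The call did not hold without small input 1 (adjusted p = 0.136), input 2 (0.125), input 4 (0.0508) or input 5 (0.0917), nor with total-read scaling (0.0946) or lane as a block (0.0504). Without input 3 it was 0.026. The log2 change lay between 3.80 and 4.84 over the 13 alternatives. The CD2- input sequenced in the same lane as the library had 2267 CPM. The CD2- GFP+ libraries had 36061 to 73370 CPM, with a median of 54358, so the library lay inside their range, near its lower end.

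The most abundant region of the library was CBP4242 (3L:20394856-20395883), with 66168 CPM. Small inputs 1 to 5 had 6292, 120, 1868, 2073 and 338 CPM, so the library was 10.5 times the highest of them. Its log2 change of 5.48 ± 1.27 was not called by edgeR in the comparison as designed (adjusted p = 0.175), but it was by DESeq2 (0.0332), with the spread from all duf libraries (0.00336) and with all 11 inputs (0.000306). The inputs themselves ran from 120 to 6292 CPM. ChIPCRM5432 (2L:4363360-4364283) followed with 53690 CPM, against 3384, 8663, 11300, 22.6 and 2282 CPM in the inputs (log2 change 3.95 ± 1.47, adjusted p = 0.489). The lowest inputs were 2 and 5 for CBP4242 and input 4 for ChIPCRM5432.

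ChIPCRM2000 (3R:6178368-6179318) had 46170 CPM, and the inputs had 9718, 17936, 9261, 9574 and 7133 CPM. It overlaps 2 regions of the set named for jumu, a forkhead transcription factor gene. The library was 2.57 times the highest input (log2 change 2.64 ± 0.46, adjusted p = 0.065). ChIPCRM2613 (3R:13875672-13876661) had 41600 CPM against 4515, 5003, 5830, 13474 and 6311 CPM (3.08 ± 0.58, adjusted p = 0.069). Without small input 4, the highest of them, it was the region called instead of ChIPCRM2889 (3.50 ± 0.43, adjusted p = 0.022), and with lane as a block it was again the only call (4.52 ± 0.88, adjusted p = 0.035). ChIPCRM5792 (2L:9454132-9455154) had 33915 CPM against 4676, 5298, 6653, 1665 and 1599 CPM (3.64 ± 0.71, adjusted p = 0.069). The library lay above every input for each of these regions, while edgeR in the comparison as designed called only ChIPCRM2889. Under DESeq2, ChIPCRM2000 (0.0436) and ChIPCRM5792 (0.0286) also passed, and with all 11 inputs as control so did ChIPCRM2000, ChIPCRM2613 and ChIPCRM5792.

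Below these in abundance came 3 further ChIPCRM regions and the gene-named hth_3. ChIPCRM6081 (2L:14512703-14513646) had 23964 CPM against 409, 3420, 114, 1350 and 8709 CPM, and it overlaps ChIPCRM6082 and ChIPCRM6083. ChIPCRM5819 had 21102 CPM against 726 to 5120 CPM in the inputs, and ChIPCRM2898 had 15637 CPM against 1654 to 8575 CPM. The region hth_3 (3R:6427784-6428746) bears the name of homothorax, which encodes a homeodomain protein that works with Extradenticle. It had 14865 CPM, and small inputs 1 to 5 had 18.9, 24.7, 110, 26.9 and 1556 CPM. The library was 9.55 times the highest input and 554 times the median input, but the log2 change of 5.98 ± 1.94 was not called (adjusted p = 0.342). A region at the level of inputs 1, 2 and 4 would correspond to about 1 cell among 39668 (25.2 CPM).

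**Figure D2:**
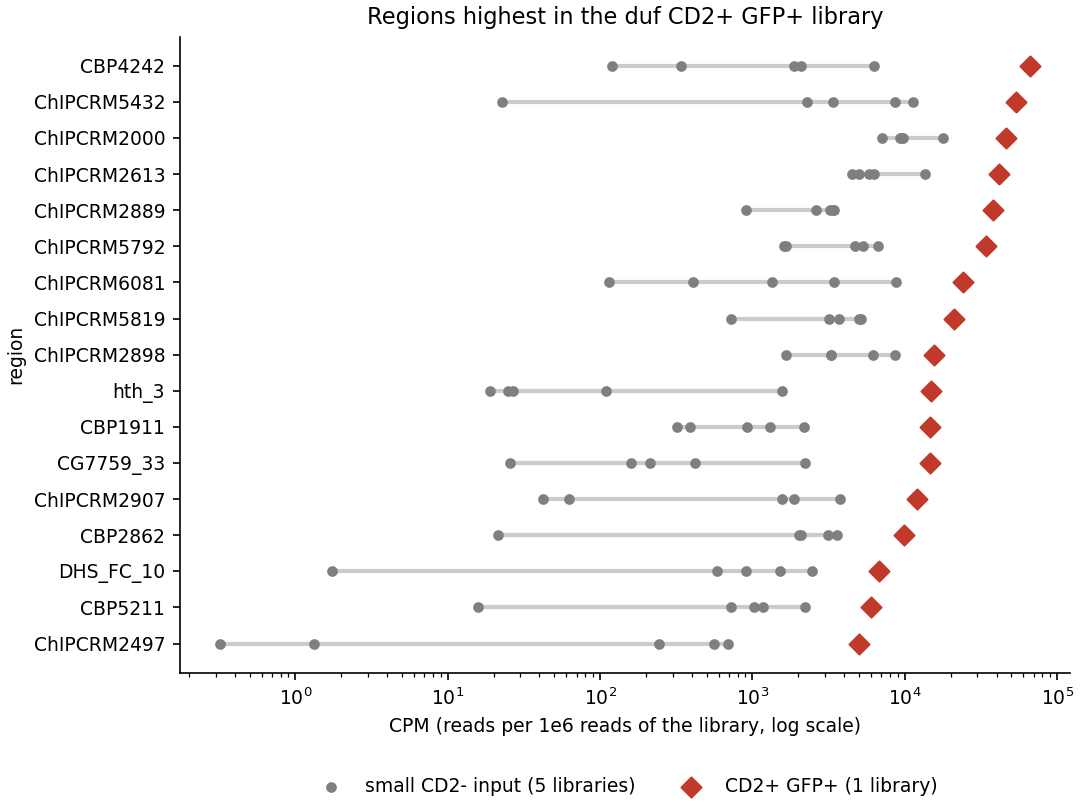
CPM on a log scale in the CD2+ GFP+ library (diamonds) and the 5 small CD2- inputs (dots, with a bar from lowest to highest) for the 10 most abundant regions and the 15 with the largest ratio to the highest input. In all 17 regions the library lies above every input, by 1.82 to 10.9 times, while the inputs of a region span up to several orders of magnitude. The regions were chosen by that ratio or by their level in the library, so their place above the inputs carries no test.

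Among the other regions with a large ratio to the highest input were CBP1911 (2L:5542296-5543294), with 14718 CPM against 320 to 2171 CPM, and CG7759_33 (2R:7287136-7288168), named for Smyd4-3, a gene of the SET and MYND domain family. The latter had 14696 CPM, and the inputs had 2223, 417, 160, 25.7 and 213 CPM. Input 1 stood well above the other 4 (log2 change 5.14 ± 1.57, adjusted p = 0.305). CBP2862 reached 9930 CPM, DHS_FC_10 6738 CPM, CBP5211 5957 CPM and ChIPCRM2497 5004 CPM, each with at least 1 input under 25 CPM. For 4 regions every small input lay under the share of 1 cell of 20015 (50.0 CPM), which the library reached. The highest of them was ChIPCRM3003 with 602 CPM against at most 1.69 CPM, and the others were ChIPCRM5440, ChIPCRM5283 and CG6972_4, with 344, 70.2 and 145 CPM. These 4 fall outside the naming rule and were picked with their values known. All 4 exceeded 50 CPM in at least 1 of the 200000-cell inputs, so they were present in the fly pool.

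In 52 of the 105 regions below every input the library held less than the share of 1 cell, and 7 had no read in it, while 53 were at or above that share. Of the 105, 58 had at least 200 CPM in every small input. The region with the largest such gap by the naming rule was ChIPCRM5794 (2L:9495471-9496493), with 9 reads (0.410 CPM) in the library and 4638, 2127, 2291, 3419 and 1795 CPM in small inputs 1 to 5. DHS_FC_8 (3L:12795042-12795963) had 1.41 CPM against 2491, 6169, 3159, 1013 and 3860 CPM. ChIPCRM1780 (3R:3858437-3859391) had 4.88 CPM against 9147, 3820, 2523, 2882 and 2646 CPM. CBP3886 had 2 reads and CG3303_up_3, named for EndoU, a gene of an endoribonuclease family, had 1 read, against inputs of 368 to 5545 CPM and 346 to 1934 CPM. ChIPCRM5794, DHS_FC_8 and ChIPCRM1780 had an adjusted p of 0.186 by edgeR, and no lower region was called. In the CD2- GFP+ libraries ChIPCRM1780 had 0.261 to 429 CPM and CG3303_up_3 had 0.280 to 319 CPM. DHS_FC_8 had 0.348 to 1228 CPM there and CBP3886 had 1.05 to 496 CPM. For these regions, single GFP+ libraries there also fell under the share of 1 cell. ChIPCRM5794 did not, with 53.2 to 723 CPM, and the CD2+ GFP+ library lay below every CD2- GFP+ library for it.

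**Figure D3:**
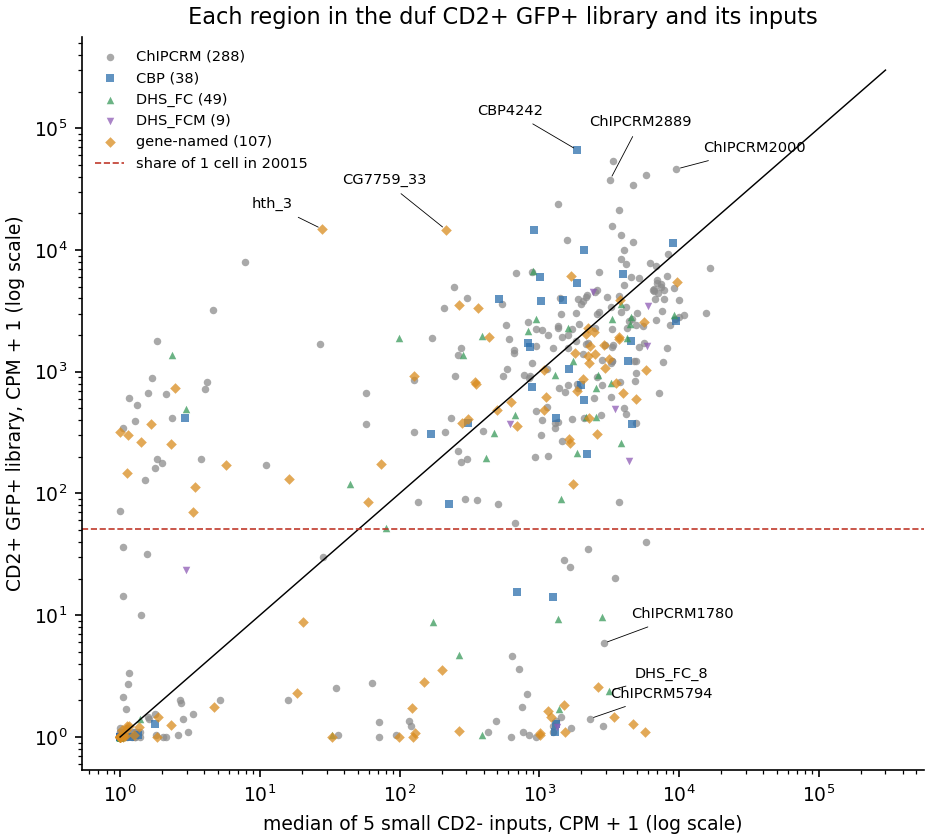
CPM + 1 of each of the 491 regions in the CD2+ GFP+ library against the median of the 5 small inputs, both on log scales, with symbols by region class, a line of equal values and a dashed line at the share of 1 cell in 20015 (50.0 CPM). Named regions such as CBP4242 and hth_3 lie far above the line, and a band of regions with inputs near 1000 CPM lies under the dashed line.

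By class, the CBP regions took 14.6% of the reads of the library, above the 6.21% to 9.02% in the small inputs and below the 26.2% to 27.6% in the CD2- GFP+ libraries. Of the 33 CBP regions with reads, 7 lay above and 7 below every small input. CBP4242 was the largest of them and alone took 6.62% of the reads of the library. The excess of the class over the small inputs therefore rests largely on that region. DHS_FC regions took 4.46%, under the 6.13% to 10.7% of the small inputs and over the 1.46% to 2.46% of the CD2- GFP+ libraries. Of 40 DHS_FC regions 4 lay above and 12 below. ChIPCRM regions took 70.5%, within the 65.3% to 71.4% of the small inputs, with 30 of 261 above and 66 below. Gene-named regions took 9.36%, against 12.3% to 15.01%, with 11 of 97 above and 16 below. Regions on the X chromosome took 8.19% of the reads, against 11.9% to 14.1% in the small inputs and 2.81% to 4.08% in the CD2- GFP+ libraries. Of 74 X regions with reads, 6 lay above every small input (8.11%) and 18 below (24.3%). The other chromosomes also lay outside their small inputs. Chromosome 2R took 6.26% (inputs 9.40% to 11.3%) and 3L 19.4% (19.9% to 24.0%). Chromosome 2L took 30.3% (20.1% to 25.6%) and 3R 35.9% (27.8% to 34.8%). The shares of members above (11.3% for gene-named, 21.2% for CBP, 10.0% for DHS_FC and 11.5% for ChIPCRM regions) stand beside 12.1% over all regions. The shares below were 16.5%, 21.2%, 30.0% and 25.3% in the same order, beside 23.9%. DHS_FCM regions took 1.06% of the reads, against 2.30% to 3.18% in the small inputs, with 1 of 8 above and 4 below.

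The gene-named regions included several from genes of muscle identity and fusion. On a list of somatic muscle and founder cell genes, 3 of the 34 regions with reads lay above every small input (8.82%) and 4 below (11.8%), beside 12.1% and 23.9% over all regions. The median log2 ratio of the library to the median input was -0.95 for the list and -0.36 over all regions (CPM + 1). The list took 2.17% of the reads, under the 3.50% to 5.08% of the small inputs and over the 0.781% to 1.502% of the CD2- GFP+ libraries. Of regions named for CG11202, the gene org-1, a T-box factor of muscle founder identity, 2 of 18 with reads lay above and 2 below (11.1% each). CG11202_down_4 had 6077 CPM in the library, against 96.4 to 2729 CPM in the inputs with a median of 1676. It lay above every CD2- GFP+ library as well (425 to 1921 CPM), but its log2 change of 2.69 ± 1.66 was not called (adjusted p = 0.783). It overlaps CG11202_down_3 and CG11202_down_5. CG11202_up_3 had 321 CPM against 0 to 125 CPM. The neighbouring tiles CG11202_a_1 and CG11202_a_2, which overlap each other, had 2.57 and 0.454 CPM, while their inputs reached 3375 and 4700 CPM.

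Of the 11 regions named for slouch, the homeodomain factor of muscle identity, 0 lay above and 2 below every input (18.2%). slou_Dn_18 had 1023 CPM against 1885 to 9272 CPM, and slou_Dn_1 had 2 reads against 0.961 to 3495 CPM. Of 16 regions with reads named for nej, the acetyltransferase coactivator CBP, 0 lay above and 5 below (31.2%). These counts are small, and over all regions 12.1% lay above and 23.9% below. The most abundant, CG15319_down_9, had 5443 CPM against 7363 to 11530 CPM. nau_Dn_2, the third muscle-list region above every input, is named for nautilus, the MyoD family gene, and had 3 reads, at the floor. Mef2_29, the only region of the set named for a driver gene, Mef2, had 111 CPM against 403, 1.47, 1397, 2.43 and 0.570 CPM, inside the range of its inputs. The cardiac list gave 0 above and 0 below of 5 regions with reads, the visceral mesoderm list the same of 2, and the list of ectoderm, nervous system and segmentation genes the same of 2. The list of coactivator and chromatin genes, with nej and Smyd4-3, gave 1 above and 5 below of 17.

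**Figure D4:**
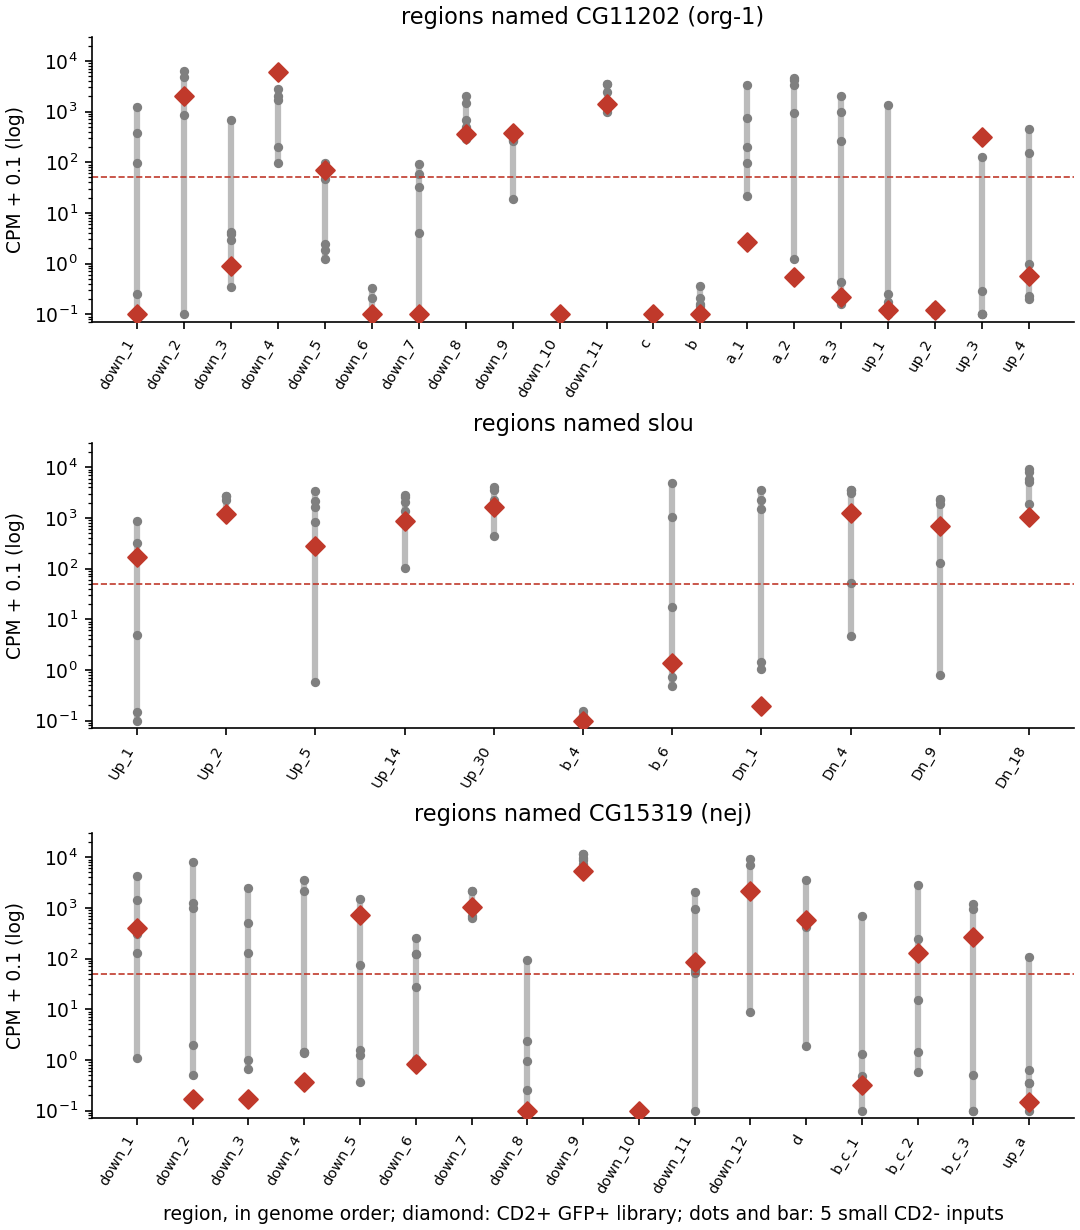
CPM + 0.1 on a log scale in the CD2+ GFP+ library (diamonds) and the 5 small inputs (dots and bars) for the regions named for org-1, slou and nej, in genome order, with a dashed line at the share of 1 cell in 20015. In org-1, down_4 and up_3 lie above every input, and in slou and nej 0 regions do.

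Set directly against the CD2- GFP+ libraries, which share GFP selection but not the CD2 state, the library was above all 6 for 139 of 443 regions (31.4%) and below all 6 for 46 (10.4%). On TMM-scaled library sizes, an alternative added after seeing the data, 59 lay above and 73 below, and the median log2 change was -0.51 on the TMM scale and 0.41 on total reads, so the more frequent direction depended on the scaling. These are shares of a library's reads, of which the most abundant regions took more in CD2- GFP+ cells. An exact permutation test of 1 against 6 cannot go below 0.286. edgeR called 0 regions higher (0.0% of 421) and 3 lower (0.713%), and 18 had a p under 0.05 before adjustment. By DESeq2, 0 were higher (0.0%) and 71 lower (16.9%).

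The 3 regions called lower were among the most abundant of the CD2- GFP+ libraries. CBP4242 had 66168 CPM against 148685 to 193909 CPM (median 172767, log2 change -2.29 ± 0.24, adjusted p = 0.00029). CBP2861 (3L:317954-319048) had 11309 CPM against 51195 to 68444 CPM (median 51890, -3.23 ± 0.46, adjusted p = 0.0029), while its small inputs had 9012, 13820, 8814, 6539 and 18425 CPM, a range that holds the library's value. CG7759_33 had 14696 CPM against 34092 to 75132 CPM (median 62650, -2.92 ± 0.58, adjusted p = 0.041). The library was below all 6 in each case, and also below the CD2- GFP+ library of the same lane, replicate 4. With the spread from all duf libraries or lane as a block, none of these 3 was called (adjusted p from 0.460 to 0.793). CG7759_33 was also not called without CD2- GFP+ replicate 2, 4, 5 or 6 (adjusted p from 0.055 to 0.122), with total-read scaling (0.166) or with RLE factors (0.0634). CBP4242 was not called by DESeq2 (0.0563). ChIPCRM2907, at 11966 CPM against 27638 to 59789 CPM, was below all 6 but not called (adjusted p = 0.067).

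The largest ratios in the other direction belonged to ChIPCRM6902, ChIPCRM630, mud_c_d, ChIPCRM5101 and ChIPCRM6087. ChIPCRM6902 had 4066 CPM against 0 to 189 CPM in the CD2- GFP+ libraries, and mud_c_d, named for mud, a gene of spindle orientation, had 3304 CPM against 1.58 to 466 CPM. The CD2- input of the same lane had 4856 CPM of mud_c_d, more than the library. The library was above all 6 CD2- GFP+ libraries in both regions. None of the 5 was called (adjusted p at least 0.830), and ChIPCRM6902 and ChIPCRM5101 lay within the range of the small inputs. Among the abundant regions, ChIPCRM2000 was 2.41 times and ChIPCRM6081 3.56 times the highest CD2- GFP+ library. Their log2 changes were 0.73 ± 0.48 and 1.52 ± 0.70 (adjusted p = 0.830 for both). ChIPCRM2000 had 10557 to 19115 CPM and ChIPCRM6081 1964 to 6731 CPM in those libraries.

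**Figure D5:**
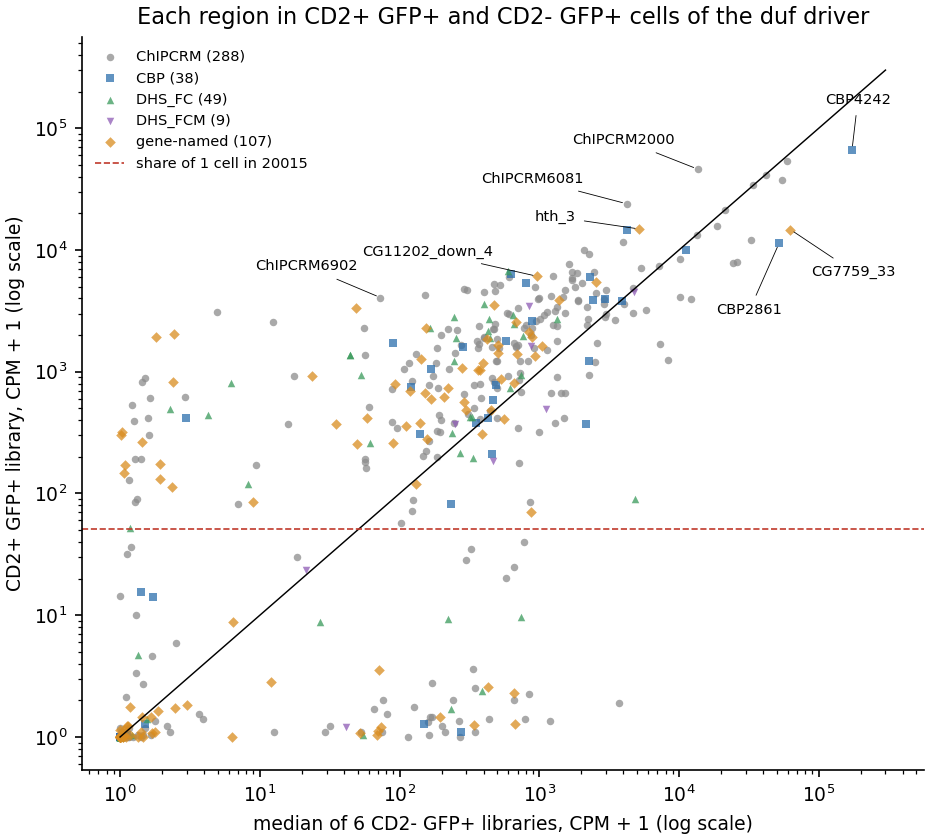
CPM + 1 of each region in the CD2+ GFP+ library against the median of the 6 CD2- GFP+ libraries, both on log scales, with symbols by class, a line of equal values and a dashed line at the share of 1 cell in 20015. CBP4242, CBP2861 and CG7759_33 lie below the line, while most regions of middle abundance lie above it.

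Most regions abundant in the CD2+ GFP+ library were also higher in CD2- GFP+ cells than in CD2- input, on TMM scaling. In CD2- cells edgeR called 47 regions higher (11.8% of 400) and 5 lower (1.25%), DESeq2 58 (14.5%) and 6 (1.5%), and with the replicate number as a block edgeR called 42 higher and 2 lower. With total-read scaling the counts were 22 higher and 95 lower, so the more frequent direction turned with the scaling. All 6 CD2- GFP+ libraries were above all their inputs for 16 of 451 regions (3.55%) and below for 91 (20.2%). Of the 53 regions above every small input in the CD2+ comparison, 23 were among the 47, which is 43.4% of the first list and 48.9% of the second. All 16 regions that reached 10000 CPM in the library were among the 47, but 12 of them were called with total-read scaling. In CPM, ChIPCRM2000 was not higher in CD2- GFP+ cells, with a median of 13562 against 15121 in the 200000-cell inputs. Of the 47, 3 lay below every small input. Of the 5 called lower, 2 lay below and 0 above every small input. Over all regions with reads, 12.1% lay above and 23.9% below. Whether enrichment over input differed between CD2+ and CD2- cells was tested in 1 fit over the 4 duf groups. edgeR called 0 regions with higher (0.0% of 430) and 0 with lower enrichment (0.0%) in CD2+ cells, and 30 had a p under 0.05 before adjustment. The counts by DESeq2 were 1 (0.233%) and 83 (19.3%). For ChIPCRM2889 the difference was -0.77 on the log2 scale (adjusted p = 0.878), and for CBP2861 it was -3.30 (adjusted p = 0.336). No difference of enrichment between the CD2 states passed the threshold with edgeR, which does not show that enrichment was alike.

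As a background without GFP selection, the small inputs were compared with the 200000-cell inputs. edgeR called 0 higher (0.0% of 412) and 0 lower (0.0%), and 21 had a p under 0.05 before adjustment. By DESeq2 these counts were 3 (0.728%) and 5 (1.21%). Over 453 regions, Spearman's rho of the library was 0.57 to 0.62 with the small inputs, 0.66 to 0.72 with the CD2- GFP+ libraries and 0.64 to 0.68 with the 200000-cell inputs. Between the small inputs it was 0.58 to 0.66. These correlations are across regions of the same pool, which are not independent replicates, and the depth and cell number of the libraries differ. With the single mef2 CD2+ GFP+ library rho was 0.22, but that library had a read for 228 regions, against 410 in the duf library. The value therefore also depends on which regions had reads in each library. Several regions abundant here had no read in the mef2 library, among them CBP4242, ChIPCRM2000, ChIPCRM2613 and ChIPCRM5792. These also had none in the inputs of the twi and mef2 drivers.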

How the data were processed

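Inserted regions were counted in 18 duf libraries, of which the CD2+ GFP+ library and its 5 small inputs are the comparison reported. Per the submitters' processing notes, CASAVA 1.8 and genome build dm3 were used, and for the mapper the sources used here give no version. Tables as deposited hold expected counts per region, with fractions in some overlapping regions. The deposited start, end and weight columns are counts of reads at region ends, and GC content is a deposited fraction. No deposited value was normalised as far as the tables show.

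Counts were rounded and tested by the quasi-likelihood F test of edgeR 4.0.16 under R 4.3.3 (TMM scaling, filterByExpr), and p-values were adjusted by Benjamini-Hochberg over all regions tested, with a threshold of 0.05. DESeq2 1.42.0 was an alternative. The fitting code was checked on simulated counts of 1 library against 5, with changes of known size set in the 1 library. With a low simulated spread, every such change was called. With the spread of the real small inputs, few of the increases and none of the decreases were called. Regions with no change set then had a median log2 estimate of -1.42. A region not called may therefore still differ from its inputs. PCR reads carry no molecular identifiers, so floors cover counting error only. Regions named were those called, the 15 with the largest ratio to the highest input (at least 1000 CPM), the 10 with the largest ratio below the lowest input (at least 200 CPM in every input, counts under 3 taken as 3), the 10 most abundant here and in CD2- GFP+ cells, the 5 furthest above and the 5 furthest below all CD2- GFP+ libraries, and any named for a driver gene. Others are named as gene-named tiles or were chosen after their values were seen. The regions, lists and rules were chosen with earlier results of these data known. Gene symbols were matched to region names through a RefSeq table of a later assembly, used for names only, and 105 of 107 gene-named regions matched. No sequence of build dm3 was used here. Same-numbered duf CD2- GFP+ and input libraries share numbers in the labels, and their deviations from the group means correlated at 0.21 to 0.39. No 2 libraries agreed within sampling noise.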

Additional observations from a re-analysis of the deposited data

Results flagged for a closer look

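Groups of 5 or 6 libraries were examined for the regions named, and for total reads, regions detected and the share of the 10 most abundant regions. Among 81 such groups, 9 held a library set apart from the others by Dixon's criterion. Its chance rate of about 1 in 20 holds for normally distributed values, which was not checked here. Many of the regions were also named for extreme values, so the 9 cannot be set against that rate. In the small inputs these were CG7759_33 in input 1 (2223 CPM, next 417), ChIPCRM1780 in input 1 (9147, next 3820), ChIPCRM7302 in input 1 (8147, next 1739), ChIPCRM2000 in input 2 (17936, next 9718), Mef2_29 in input 3 (1397, next 403), ChIPCRM2613 in input 4 (13474, next 6311) and hth_3 in input 5 (1556, next 110). In each the input set apart was the highest. In the CD2- GFP+ libraries they were ChIPCRM5819 in replicate 1 (34347 CPM, next 23666) and ChIPCRM2497 in replicate 2 (2834, next 1130).

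ChIPCRM6087 had 1368 CPM in the CD2+ GFP+ library, above every small input, whereas all 6 CD2- GFP+ libraries lay below every CD2- input of 200000 cells. The inputs differ between these comparisons, and the library lay within the range of the 200000-cell inputs (746 to 2894 CPM) and below the one of its own lane (2894 CPM). The difference of enrichment was 5.12 on the log2 scale and was not called by edgeR (adjusted p = 0.689).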

How the results depend on the processing

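The number of regions called is the least stable value. The 1 region called higher against the small inputs became 0 with total-read scaling, 2 with RLE factors, 9 with DESeq2, 11 with the spread from all duf libraries, 10 with all 11 inputs, and 0 to 1 leaving out an input. The 0 called lower became 68 with DESeq2 and 3 with all 11 inputs. The 3 lower against CD2- GFP+ became 71 with DESeq2, 0 with the spread from all duf libraries, 0 with lane as a block and 2 to 4 leaving out a library. The 139 regions above and 46 below every CD2- GFP+ library became 59 and 73 on TMM-scaled sizes. The difference test gave 1 higher and 83 lower with DESeq2, and the comparison of inputs 3 and 5. In CD2- cells the 47 higher became 22 and the 5 lower 95 with total-read scaling, the 5 became 2 with the replicate block and 2 to 8 leaving out a library. The replicate block moved the 47 to 42. The share of the 10 most abundant regions was 32.48% without the first. The regions above every input numbered 60 to 67, and those below 117 to 127, leaving out an input. This step can only keep or raise these numbers.

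For single regions against the small inputs, 422 values kept their direction and side of the threshold, 36 gained the call, 6 lost it and 4 reversed. The reversals were Mef2_29 without small input 3 (0.6463, adjusted p = 0.987, lowest value -1.466 without another input), CBP2861 with total-read scaling (-0.001624), and ChIPCRM5101 with total-read scaling (-0.08604) and with lane as a block (-1.156). Apart from these constructions, the cause was not tested. No paired analysis was possible for the CD2+ comparison because its GFP+ side is 1 library with no replicate number.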
